A study of Mus musculus with 11 samples.

Results

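The 37 genes described here encode the enzymes that build cholesterol and fatty acids, the machinery that switches those enzymes on and off, and 5 proteins that move sterol between membranes. They were chosen by gene symbol, and all 37 were found among the 21684 genes of the deposited count table. All 37 also passed the filter on low counts and were among the 13332 genes tested. Abcg1 passed only through Sox5 KO, the group where it is high, and the other 36 members had mean counts of at least 100. NIH/3T3 cells, an immortalised line of mouse embryonic fibroblasts, were grown for 24 h in standard medium and then for 24 h in serum-free medium before total RNA was sequenced. Unedited cells (WT) gave 2 libraries, and lines labelled Xap5 KO, Nono KO and Sox5 KO gave 3 libraries each, 11 in all. Every group, WT included, was deprived of serum, so no library shows these genes in cells fed with serum. Xap5, listed in the table as Fam50a, encodes a nuclear protein. Nono encodes an RNA- and DNA-binding nuclear protein, and Sox5 a transcription factor of the SOX family. How the lines were edited, and whether each is 1 clone, is not given in the sources used here.

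Cells make cholesterol from acetyl-CoA through mevalonate, isoprenoid diphosphates, squalene and lanosterol, and make fatty acids from the same acetyl-CoA through malonyl-CoA. Most of these enzymes are transcriptional targets of the sterol regulatory element-binding proteins (SREBPs), membrane-bound transcription factors that Scap escorts out of the endoplasmic reticulum when sterol is low and that Insig proteins hold back when sterol is high. Cultured fibroblasts take up sterol and fatty acids from serum, and removing serum or lipoprotein is a classical way to raise this programme.

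The libraries held 30205878 to 43498383 counts. Within a group, libraries lay closer to each other than to any library of another group. Fam50a measured 63.8 ± 1.34 CPM (counts scaled to a common library size, ± SD, n = 2) in WT and 7.75 ± 0.23 CPM (SD, n = 3) for Xap5 KO, and Nono measured 354 ± 4.67 CPM in WT and 31.8 ± 3.7 CPM in Nono KO. Sox5 measured 47.8 ± 2.68 CPM in WT and 13.5 ± 0.759 CPM in Sox5 KO, but it was as low in Xap5 KO (13.7 ± 1.62 CPM) and lower in Nono KO (7.78 ± 0.891 CPM), so this gene does not set the line labelled Sox5 KO apart from the other KO lines. All 9 fibroblast markers were detected in every group, and their summed level was 23887 to 23945 CPM in WT, 18332 to 19645 CPM in Xap5 KO, 47596 to 52279 CPM in Nono KO and 19636 to 20137 CPM in Sox5 KO. The 7 adipocyte markers summed to at most 1.74 CPM, the 5 hepatocyte markers to at most 2.97 CPM and the 5 epithelial markers to at most 0.397 CPM in any library, with Lep, Krt8 and Krt18 at 0 in every group. The 4 leukocyte markers summed to 7.25 to 10.9 CPM in Nono KO and to at most 3.38 CPM elsewhere, with Cd3e at 0. The median change of all tested genes on a chromosome also differed between lines, and the 9 tested genes of the Y chromosome had a median log2 fold change of -8.22 in each KO line. Where subtracting these medians changed the call of a named gene against WT or moved its called value by over 1.5 times, the value relative to the median is given beside it.

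Most of the 37 genes were higher in each KO line than in WT, and most strongly so in Sox5 KO. Genes were called at an adjusted p under 0.05 in edgeR (quasi-likelihood test, Benjamini-Hochberg adjustment over all tested genes). By that rule 20 of 37 members (54.1%) were higher in Xap5 KO and 4 (10.8%) lower. Of the 4 lower, Srebf1, Npc2, Fdft1 and Acaca, 2 remained called without WT replicate 1 and 2 without WT replicate 2, and with scaling by library totals 20 were higher and 8 lower. In Nono KO 30 (81.1%) were higher and 2 (5.41%) lower, and in the Sox5 line 34 (91.9%) and 2 (5.41%). Leaving out Abcg1, 33 of 36 were higher in the Sox5 line. Over all tested genes, 23.2% were higher and 22.3% lower in Xap5 KO, 23.5% and 25.1% for Nono KO, and 30.6% and 30.3% in Sox5 KO. At this threshold the share of members called higher exceeded the background in each line, while the share called lower was below it. The members were chosen with earlier results of these data known, so these shares are a description. With a log2 fold change of at least 1 in size as well, 2 of 37 members (5.41%) were higher in Xap5 KO, against 5.67% of all tested genes. In Nono KO and Sox5 KO the share of members called higher still exceeded the background at that size. Fold changes are given on the log2 scale, ± SE from the fit where an error is shown. The median log2 fold change of the members was 0.35 for Xap5 KO, 0.47 for Nono KO and 1.01 in Sox5 KO, against 0.00 (0.0026), -0.02 and -0.01 (-0.0058) for all tested genes. All 3 comparisons use the same 2 WT libraries, so they are not independent of each other. The 3 KO lines also shared low Sox5 and low Y-linked genes against WT. A change shared by the 3 lines therefore cannot be told apart from another difference between these WT cells and the KO lines. A CPM value is a share of all counts of a library, so more RNA of a gene per cell and more cells that express it cannot be told apart.

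**Figure D1:**
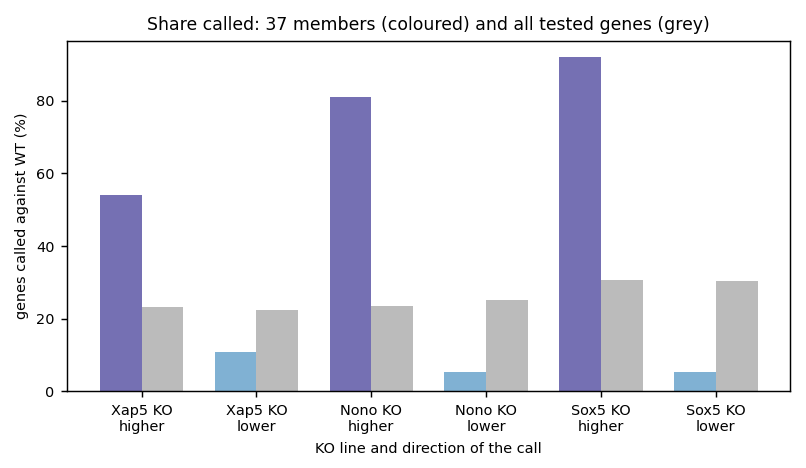
Percentage of genes called higher or lower than WT (y axis) in each KO line (x axis), for the 37 members (coloured bars) and all 13332 tested genes (grey bars). Members called higher reached 54.1%, 81.1% and 91.9% in Xap5, Nono and Sox5 KO, against 23.2%, 23.5% and 30.6% of all genes.

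Summed over the 37 genes, WT libraries held 5831 ± 111 CPM (SD, n = 2), Xap5 KO 6842 ± 3.21 CPM, Nono KO 8431 ± 306 CPM and Sox5 KO 10952 ± 175 CPM (SD, n = 3 each). WT replicate 1 was the lower WT library in 30 of 37 members (summed 5752 against 5909.6 CPM). Xap5 KO replicate 3 was the lowest of its line in 21 of 37 (6839 CPM) and Nono KO replicate 3 in 24 of 37 (8079 CPM). How often these libraries were lowest over all tested genes was not computed, so these counts are a description. The WT libraries did not reach the lowest KO sum of 6839 CPM, and without WT replicate 1 the members called higher numbered 19, 29 and 31 for Xap5, Nono and Sox5 KO. The mean sums were 1.17, 1.45 and 1.88 times the WT mean. In Sox5 KO the sum of the 11 enzymes from squalene to cholesterol rose furthest of the roles, to 2.25 times the WT mean. In Xap5 KO and Nono KO the sum of the mevalonate pathway rose furthest, to 1.42 and 2.02 times the WT mean. The sum of the 5 transport genes stayed between 0.918 and 1.06 times the WT mean. A sum is ruled by abundant genes: per kb of the longest annotated transcript, Scd2 was the highest member in WT with 199 CPM per kb, followed by Npc2 with 136. Over the 3 KO lines, 18 members (48.6%) were higher in all 3, against 8.33% of all tested genes, and 1 member, Srebf1 (2.7%), was lower in all 3, against 7.61%. The 18 were Acat2, Hmgcs1, Mvk, Pmvk and Fdps of the mevalonate pathway, Sqle, Cyp51, Nsdhl, Hsd17b7, Sc5d and Dhcr7 of the later sterol pathway, the regulators Srebf2 and Scap, the transporter Stard4, and Acss2, Scd2, Fads1 and Fads2 of fatty acid synthesis. A further 10 members were higher in Nono KO and Sox5 KO and not called in Xap5 KO. The share of all tested genes with that pattern was not computed, so this count is a description.

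**Figure D2:**
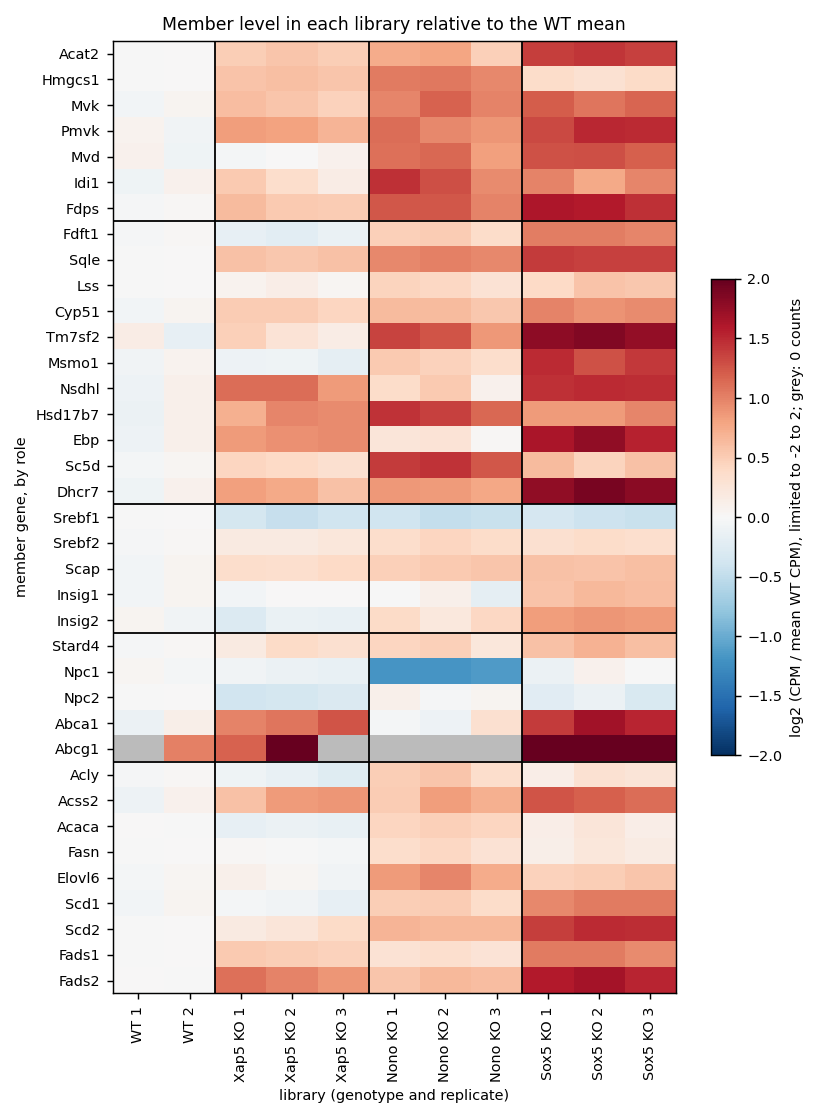
Level of each member (rows, by role) in each of the 11 libraries (columns) as log2 of its CPM over the mean WT CPM, limited to -2 to 2, with grey where the count was 0. Sox5 KO libraries are the darkest red for most enzymes, Srebf1 is pale blue in all 9 KO libraries, and Npc1 is blue in the 3 Nono KO libraries.

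Of the 5 genes of SREBP control, 2 were higher and 1 lower in Xap5 KO, 3 and 1 for Nono KO, and 4 and 1 in Sox5 KO, and the 2 SREBP genes moved in opposite directions. These counts, and those of the other roles below, can be read against the shares of all tested genes given above. Srebf2, which encodes the SREBP that mainly drives sterol enzymes, measured 328 and 337 CPM in WT and 378, 376 and 389 for Xap5 KO. Srebf2 in Nono KO was at 426, 448 and 429.7, and in Sox5 KO at 414, 429 and 419. Every KO library lay above both WT libraries, and Srebf2 rose by 0.20 ± 0.054 for Xap5 KO (adjusted p = 0.00528), 0.38 ± 0.054 for Nono KO (adjusted p = 4.88e-06) and 0.34 ± 0.054 in Sox5 KO (adjusted p = 1.46e-05) on the log2 scale. The rise in Xap5 KO was 0.16 and no longer called without WT replicate 1. With scaling by library totals Srebf2 was at 0.22 for both Nono KO and Sox5 KO, and relative to the median of chromosome 15 at 0.22 and 0.17, all still called. Srebf1, whose products include SREBP-1a and SREBP-1c, drivers of fatty acid enzymes, measured 107 and 109 CPM in WT and 84.4, 78.9 and 81.9 for Xap5 KO. Srebf1 in Nono KO was at 82.0, 77.8 and 79.4, and in Sox5 KO at 85.6, 81.6 and 79.8. All 9 KO libraries lay below WT and overlapped each other, and the log2 fold change was -0.41 ± 0.063 for Xap5 KO (adjusted p = 1.91e-05), -0.44 ± 0.063 for Nono KO (adjusted p = 5.62e-06) and -0.39 ± 0.063 in Sox5 KO (adjusted p = 1.41e-05). Scap, the escort that carries SREBPs to the Golgi for cleavage, measured 85.4 and 91.3 CPM in WT and 112, 112 and 116 for Xap5 KO. Scap in Nono KO was at 123, 127 and 130.2, and in Sox5 KO at 132, 132 and 134. Its log2 fold change was 0.36 ± 0.059 for Xap5 KO (adjusted p = 3.36e-05), 0.52 ± 0.059 for Nono KO (adjusted p = 2.46e-07) and 0.58 ± 0.059 in Sox5 KO (adjusted p = 2.64e-08), with no KO library as low as WT. On chromosome 9, whose median was 0.35 for Nono KO, Scap was at 0.17 relative to the median and still called.

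Insig1 and Insig2 encode the proteins that retain Scap and SREBP in the endoplasmic reticulum, and Insig1 is itself an SREBP target. Insig1 measured 147 and 158 CPM in WT and 147, 153 and 153 for Xap5 KO. Insig1 in Nono KO was at 151, 163 and 134, and in Sox5 KO at 226, 239 and 235. The Xap5 KO and Nono KO libraries overlapped WT, and only in Sox5 KO was Insig1 called against WT, at a log2 change of 0.61 ± 0.071 (adjusted p = 1.75e-07). The values in the other lines were -0.01 ± 0.070 for Xap5 KO (adjusted p = 0.897) and -0.03 ± 0.070 for Nono KO (adjusted p = 0.76), and Insig1 was lower in Nono KO than in Sox5 KO by test of that difference (log2 fold change -0.64 ± 0.062, adjusted p = 1.21e-08), as it was in Xap5 KO (-0.63 ± 0.062, adjusted p = 2.04e-08). In Nono KO the median of chromosome 5, which holds Insig1, was -0.20, and relative to it Insig1 was at 0.17 (adjusted p = 0.0479). With library totals it was called lower in Nono KO, at -0.19. Insig2 measured 55.0 and 50.4 CPM in WT and 43.5, 48.1 and 47.7 for Xap5 KO. Insig2 in Nono KO was at 69.0, 60.9 and 69.9, and in Sox5 KO at 94.5, 96.8 and 95.6. It rose in Nono KO by 0.34 ± 0.078 and in Sox5 KO by 0.86 ± 0.079 on the log2 scale (adjusted p = 0.00118 and 6.29e-09), and was at -0.18 ± 0.078 for Xap5 KO (adjusted p = 0.0613). With scaling by library totals the value in Nono KO was 0.17 and not called, and that in Xap5 KO was -0.23 and called lower. Without Xap5 KO replicate 2, or without Nono KO replicate 2, Insig2 was also called lower in Xap5 KO, at -0.22 and -0.18.

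All 7 enzymes from acetyl-CoA to farnesyl diphosphate rose in Nono KO and in Sox5 KO, and 5 of the 7 rose in Xap5 KO. Their median log2 fold change was 0.55 for Xap5 KO, 1.03 for Nono KO and 1.25 in Sox5 KO. Acat2, the cytosolic thiolase that makes acetoacetyl-CoA, measured 148 and 149.6 CPM in WT and 210.1, 219.6 and 209 for Xap5 KO. Acat2 in Nono KO was at 249.6, 257 and 207, and in Sox5 KO at 389, 399 and 382. The 4 groups did not overlap except that Nono KO replicate 3 lay below the Xap5 KO libraries, and the log2 fold change against WT was 0.52 ± 0.073 for Xap5 KO (adjusted p = 6.14e-06), 0.68 ± 0.074 for Nono KO (adjusted p = 1.39e-07) and 1.39 ± 0.076 in Sox5 KO (adjusted p = 1.39e-12). Hmgcs1, which adds the next acetyl unit to form HMG-CoA, measured 196 and 197 CPM in WT and 293, 297 and 289 for Xap5 KO. Hmgcs1 in Nono KO was at 402, 408 and 383, and in Sox5 KO at 254, 243 and 256. Here the order differed from that of Acat2: Nono KO was the highest group, Sox5 KO lay below Xap5 KO, and no groups overlapped. The log2 fold change of Hmgcs1 was 0.57 ± 0.056 for Xap5 KO (adjusted p = 3.35e-08), 1.01 ± 0.057 for Nono KO (adjusted p = 3.56e-12) and 0.35 ± 0.056 in Sox5 KO (adjusted p = 1.34e-05), and it was higher in Xap5 KO than Sox5 KO, by 0.23 ± 0.049 (adjusted p = 0.000441). Hmgcs1 is on chromosome 13, whose median was 0.29 for Xap5 KO. Relative to it Hmgcs1 was at 0.28 in that line and still called, and the difference between the 2 lines was -0.07 and not called. Acat2, on chromosome 17 with a median of 0.18 for Xap5 KO, was at 0.34 relative to it and still called.

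Mvk, Pmvk and Mvd phosphorylate and then decarboxylate mevalonate. Mvk measured 30.1 and 32.5 CPM in WT and 48.1, 46.2 and 42.9 for Xap5 KO. Mvk in Nono KO was at 61.9, 70.7 and 62.2, and in Sox5 KO at 72.6, 65.9 and 70.1. Nono KO and Sox5 KO overlapped, both above Xap5 KO, which lay above WT, and Mvk rose by 0.55 ± 0.086 for Xap5 KO (adjusted p = 2.35e-05), 1.05 ± 0.087 for Nono KO (adjusted p = 2.06e-09) and 1.15 ± 0.087 in Sox5 KO (adjusted p = 3.12e-10) on the log2 scale. Pmvk, the least abundant of these, measured 9.80 and 8.87 CPM in WT and 16.7, 16.4 and 14.9 for Xap5 KO. Pmvk in Nono KO was at 20.3, 18.2 and 17.1, and in Sox5 KO at 23.2, 26.5 and 26.2. Its WT libraries were the lowest and its Sox5 KO libraries the highest, with the log2 fold change at 0.78 ± 0.12 for Xap5 KO (adjusted p = 2.59e-05), 0.99 ± 0.12 for Nono KO (adjusted p = 1.01e-06) and 1.44 ± 0.13 in Sox5 KO (adjusted p = 2.6e-09). Mvd measured 30.8 and 27.5 CPM in WT and 28.2, 29.3 and 31.0 for Xap5 KO. Mvd in Nono KO was at 62.6, 64.4 and 51.5, and in Sox5 KO at 70.2, 71.4 and 66.8. It rose in Nono KO by 1.03 ± 0.098 (adjusted p = 1.68e-08) and in Sox5 KO by 1.25 ± 0.098 (adjusted p = 5.15e-10), while the Xap5 KO libraries overlapped WT at 0.02 ± 0.096 (adjusted p = 0.9). Mvd is on chromosome 8, whose median was -0.35 for Xap5 KO, and relative to that median it was called higher, at 0.37.

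Idi1 and Fdps make and join the isoprenoid diphosphates that lead to sterols and to prenyl groups. Idi1 measured 96.4 and 109 CPM in WT and 148, 132 and 114 for Xap5 KO. Idi1 in Nono KO was at 284, 253 and 198, and in Sox5 KO at 204, 173 and 202. Its SE was the largest of the members other than Abcg1, and Nono KO replicate 3 overlapped Sox5 KO. Idi1 rose in Nono KO by 1.25 ± 0.17 (adjusted p = 0.000294) and in Sox5 KO by 0.91 ± 0.17 (adjusted p = 0.00138), and was not called in Xap5 KO at 0.35 ± 0.16 (adjusted p = 0.119). Without Nono KO replicate 3, which enters the shared estimate of spread, Idi1 was called higher in Xap5 KO as well, at 0.35, as it was at 0.34 in a fit of the 2 groups alone. Relative to the chromosome 13 median of 0.29 for Xap5 KO, Idi1 was at 0.06 and not called. Fdps measured 114 and 117 CPM in WT and 179.9, 166 and 163 for Xap5 KO. Fdps in Nono KO was at 272, 273 and 230.5, and in Sox5 KO at 355, 348 and 317. The groups stood in the order WT, Xap5 KO, Nono KO, Sox5 KO without overlap, and the log2 fold change was 0.56 ± 0.075 for Xap5 KO (adjusted p = 3.26e-06), 1.16 ± 0.076 for Nono KO (adjusted p = 5.02e-11) and 1.56 ± 0.078 in Sox5 KO (adjusted p = 3.47e-13). Fdps exons overlap another annotated gene on the same strand, so its counts may include reads of that gene.

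**Figure D3:**
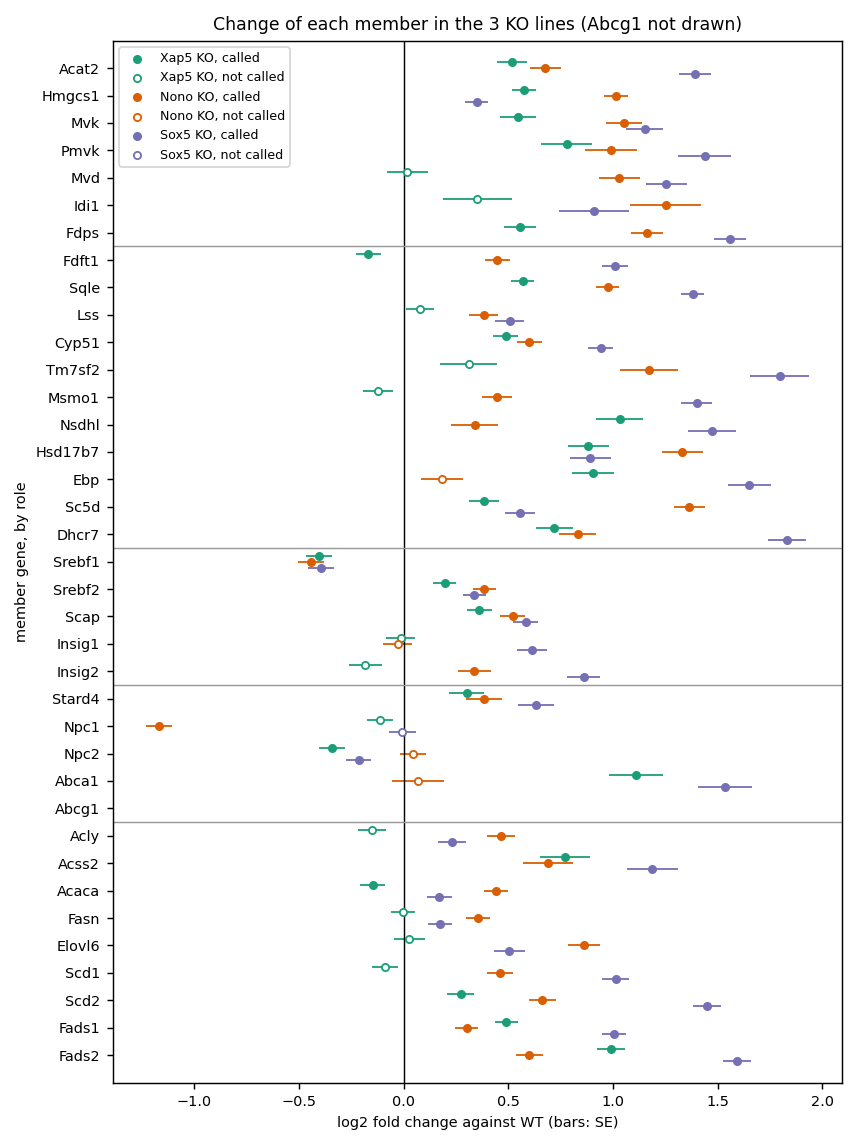
Log2 fold change against WT (x axis, bars are SE) of each member (y axis, by role) in the 3 KO lines, with filled points where edgeR called the change and open points where it did not. Points of the upper 2 blocks lie right of 0 except the Xap5 KO points of Fdft1 and Msmo1, and Abcg1 is not drawn because 3 of its groups were at or near 0 counts.

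Of the 11 enzymes from squalene to cholesterol, all 11 rose in Sox5 KO, 10 rose in Nono KO, and 7 rose and 1 fell in Xap5 KO. Median log2 fold changes were 0.49 for Xap5 KO, 0.60 for Nono KO and 1.38 in Sox5 KO. Fdft1, or squalene synthase, commits farnesyl diphosphate to sterol and measured 104 and 106 CPM in WT and 93.9, 90.7 and 95.5 for Xap5 KO. Fdft1 in Nono KO was at 145, 149 and 135, and in Sox5 KO at 213, 214 and 207. It was the enzyme of this block that fell in Xap5 KO, at a log2 change of -0.17 ± 0.060 (adjusted p = 0.025), and it rose in Nono KO by 0.45 ± 0.060 (adjusted p = 2.68e-06) and in Sox5 KO by 1.01 ± 0.061 (adjusted p = 8.06e-12). The fall was small: without WT replicate 1 it was -0.20, without WT replicate 2 -0.16 and without Xap5 KO replicate 2 -0.16, and not called in any of these fits. Nor was it called with the replicate block (-0.16) or relative to the chromosome 14 median of -0.12 for Xap5 KO, where it was -0.05. With library totals the rise in Nono KO was 0.28 and still called. Sqle, the squalene epoxidase, measured 176 and 178 CPM in WT and 264, 257 and 265 for Xap5 KO. Sqle in Nono KO was at 343, 354 and 344, and in Sox5 KO at 466, 456 and 457. Its 4 groups did not overlap, and the log2 fold change was 0.57 ± 0.054 for Xap5 KO (adjusted p = 2.19e-08), 0.97 ± 0.054 for Nono KO (adjusted p = 3.59e-12) and 1.38 ± 0.055 in Sox5 KO (adjusted p = 1.2e-14). Cyp51, which demethylates lanosterol, rose in all 3 lines, by 0.49 (adjusted p = 8.62e-07), 0.60 (adjusted p = 3.68e-08) and 0.94 (adjusted p = 1.96e-11). Lss, which closes squalene epoxide to lanosterol, rose by 0.38 (adjusted p = 8.32e-05) for Nono KO and 0.51 (adjusted p = 1.64e-06) in Sox5 KO and was at 0.08 (adjusted p = 0.365) for Xap5 KO, where the median of its chromosome 10 was -0.46 and its value relative to that was 0.54 and called. In Sox5 KO, with a chromosome 10 median of -0.32, Lss was at 0.83 relative to it, and with library totals it was at 0.22 for Nono KO, both called.

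Tm7sf2, Msmo1 and Hsd17b7 reduce or demethylate the sterol ring. Tm7sf2 measured 14.1 and 11.3 CPM in WT and 17.6, 15.4 and 14.1 for Xap5 KO. Tm7sf2 in Nono KO was at 32.3, 30.2 and 23.1, and in Sox5 KO at 43.7, 45.7 and 42.8. It rose in Sox5 KO by 1.80 ± 0.14 (adjusted p = 6.82e-10), or 1.41 relative to the chromosome 19 median of 0.39, and in Nono KO by 1.17 ± 0.14 (adjusted p = 5.34e-07), or 1.28 relative to the median of -0.11. In Xap5 KO it was at 0.31 ± 0.14 (adjusted p = 0.0712) and called higher without WT replicate 1 (0.47), without Xap5 KO replicate 3 (0.37) or without Nono KO replicate 3 (0.31). Tm7sf2 shares exon sequence with Vps51 on the same strand. Msmo1 measured 177 and 196 CPM in WT and 174, 175 and 165 for Xap5 KO. Msmo1 in Nono KO was at 268, 257 and 238, and in Sox5 KO at 528, 453 and 497. Sox5 KO stood far above the other groups at 1.40 ± 0.073 (adjusted p = 8.11e-13), Nono KO rose by 0.45 ± 0.071 (adjusted p = 2.22e-05), and Xap5 KO lay below both WT libraries without a call, at -0.12 ± 0.070 (adjusted p = 0.164). On chromosome 8, with its median of -0.35 for Xap5 KO, Msmo1 was at 0.23 relative to the median and called higher. With library totals it was called lower in Xap5 KO at -0.18, and its rise in Nono KO was 0.28. Hsd17b7 measured 45.8 and 53.4 CPM in WT and 81.3, 97.7 and 95.5 for Xap5 KO. Hsd17b7 in Nono KO was at 136, 128 and 110.3, and in Sox5 KO at 89.6, 89.1 and 97.4. Nono KO was the highest group for this gene, at a log2 change of 1.33 ± 0.099 (adjusted p = 2.17e-09), and Xap5 KO at 0.88 ± 0.097 and Sox5 KO at 0.89 ± 0.098 overlapped (adjusted p = 6.1e-07 and 2.48e-07).

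Nsdhl and Ebp, a sterol dehydrogenase and a sterol isomerase, are both on the X chromosome and shared a pattern. Nsdhl measured 67.5 and 77.2 CPM in WT and 157, 156 and 131 for Xap5 KO. Nsdhl in Nono KO was at 93.7, 104 and 77.1, and in Sox5 KO at 199, 203 and 202. The Nono KO libraries were close to WT, with replicate 3 just below the higher WT library, while Xap5 KO and Sox5 KO stood apart from WT. Its log2 fold change was 1.03 ± 0.11 for Xap5 KO (adjusted p = 6.39e-06), 0.34 ± 0.11 for Nono KO (adjusted p = 0.023) and 1.47 ± 0.12 in Sox5 KO (adjusted p = 9.41e-08). The call in Nono KO was lost without WT replicate 1 (0.25), without Nono KO replicate 1 (0.32) or 2 (0.24), and with scaling by library totals (0.18). Ebp measured 20.7 and 23.8 CPM in WT and 40.0, 41.9 and 43.1 for Xap5 KO. Ebp in Nono KO was at 26.4, 26.8 and 22.6, and in Sox5 KO at 69.4, 76.0 and 64.5. It rose in Xap5 KO by 0.90 ± 0.10 (adjusted p = 2.33e-07) and in Sox5 KO by 1.65 ± 0.10 (adjusted p = 1.14e-11), with Nono KO at 0.18 ± 0.099 (adjusted p = 0.137). Without Nono KO replicate 3 Ebp was called higher in Nono KO at 0.26. The median log2 fold change of 438 tested X-linked genes was 0.36 for Xap5 KO, -0.33 for Nono KO and 0.14 in Sox5 KO. Relative to those medians Nsdhl was at 0.68, 0.67 and 1.34 and Ebp at 0.55, 0.51 and 1.51, and the difference between Xap5 KO and Nono KO was not called for either gene on that scale.

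Sc5d and Dhcr7 act late in cholesterol synthesis, and Dhcr7 reduces 7-dehydrocholesterol, which is also the precursor of vitamin D. Sc5d measured 68.2 and 72.7 CPM in WT and 94.4, 92.5 and 88.4 for Xap5 KO. Sc5d in Nono KO was at 186, 191 and 167, and in Sox5 KO at 109, 96.2 and 106. Nono KO stood far above the other groups for Sc5d, at 1.36 ± 0.074 (adjusted p = 2.05e-12), and Xap5 KO at 0.38 ± 0.072 and Sox5 KO at 0.56 ± 0.072 rose less (adjusted p = 0.000172 and 8.95e-07). Chromosome 9, which holds Sc5d and Scap, had a median of 0.35 for Nono KO, and Sc5d was at 1.02 relative to it. Dhcr7 measured 23.3 and 26.4 CPM in WT and 43.7, 42.0 and 37.1 for Xap5 KO. Dhcr7 in Nono KO was at 45.2, 44.9 and 42.6, and in Sox5 KO at 85.3, 92.8 and 87.2. For Dhcr7 the Xap5 KO and Nono KO libraries overlapped and Sox5 KO was higher by a wide gap. Its log2 fold change was 0.72 ± 0.089 for Xap5 KO (adjusted p = 1.01e-06), 0.83 ± 0.089 for Nono KO (adjusted p = 1.09e-07) and 1.83 ± 0.092 in Sox5 KO (adjusted p = 3.88e-13).

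RefSeq promoter windows, 250 bases before to 50 bases after an annotated start, were at hand for 28 of the 37 members (36 windows). They were searched on both strands for 4 short motifs that can occur by chance, can share bases with each other and are not shown to be bound. The sterol regulatory element core TCACNCCA was in 8.33% of member windows (3 of 36), against 4.36% of all 32851 windows and 3.77% of the 13261 windows of tested genes. The NF-Y box CCAAT was in 63.89% of member windows, against 37.41% of all windows and 38.14% of those of tested genes, and the GC box GGGCGG was in 77.78%, against 35.66% and 60.43%. The E-box CACGTG was in 19.44% of member windows, against 7.15% and 9.44%. The 3 members with the sterol regulatory element core were Hmgcs1, Msmo1 and Srebf2, whose promoters follow from position -200 to -1 of the start in the direction of the gene (GRCm38.p6). Capitals mark whole matches to any of the 4 motifs on either strand, so CCAAT can read ATTGG and GGGCGG can read CCGCCC. In all 3, the core stands within a stretch that also holds an NF-Y box and a GC box. Hmgcs1 is at chr13:119690151-119690350 (plus strand), Msmo1 at chr8:64733579-64733778 (minus strand) and Srebf2 at chr15:82147069-82147268 (plus strand).
Hmgcs1: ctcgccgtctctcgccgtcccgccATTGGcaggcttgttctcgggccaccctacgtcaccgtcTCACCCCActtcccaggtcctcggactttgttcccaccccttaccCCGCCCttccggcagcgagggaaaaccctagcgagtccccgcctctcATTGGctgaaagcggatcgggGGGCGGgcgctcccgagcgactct
Msmo1: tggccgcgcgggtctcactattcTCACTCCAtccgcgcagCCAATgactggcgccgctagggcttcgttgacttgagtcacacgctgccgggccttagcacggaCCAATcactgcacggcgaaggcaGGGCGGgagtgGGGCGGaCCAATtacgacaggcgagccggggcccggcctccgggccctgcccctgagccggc
Srebf2: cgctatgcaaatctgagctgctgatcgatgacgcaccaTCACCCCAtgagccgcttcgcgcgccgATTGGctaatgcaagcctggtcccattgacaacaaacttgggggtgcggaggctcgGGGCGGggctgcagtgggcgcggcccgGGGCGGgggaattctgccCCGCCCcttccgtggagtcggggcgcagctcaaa

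The same stretch is shown for the member with the largest called rise in each line among those with 1 promoter window, with no chromosome median subtracted: Abca1 for Xap5 KO at chr4:53159896-53160095 (minus strand), Sc5d for Nono KO at chr9:42264301-42264500 (minus strand), and Tm7sf2 for Sox5 KO at chr19:6067851-6068050 (minus strand). The letters of the sterol regulatory element core were not in these windows. Abca1 and Sc5d each hold an E-box, and Sc5d and Tm7sf2 each hold an NF-Y box near the start.
Abca1: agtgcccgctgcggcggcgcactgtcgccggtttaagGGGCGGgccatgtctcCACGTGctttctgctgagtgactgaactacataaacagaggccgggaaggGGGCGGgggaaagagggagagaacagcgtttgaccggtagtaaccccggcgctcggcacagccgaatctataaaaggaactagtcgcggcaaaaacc
Sc5d: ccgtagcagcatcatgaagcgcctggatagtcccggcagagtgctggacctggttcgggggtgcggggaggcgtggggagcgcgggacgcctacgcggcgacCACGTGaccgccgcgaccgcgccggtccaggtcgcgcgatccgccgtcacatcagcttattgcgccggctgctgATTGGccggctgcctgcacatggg
Tm7sf2: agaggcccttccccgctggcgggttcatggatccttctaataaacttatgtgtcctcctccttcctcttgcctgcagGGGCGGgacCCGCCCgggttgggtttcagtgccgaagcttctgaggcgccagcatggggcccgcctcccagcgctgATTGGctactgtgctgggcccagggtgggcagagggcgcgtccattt

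The 5 sterol transport genes did not move together, and each line had its own pattern. Abca1, which exports cholesterol to apolipoprotein A-I and is a target of the liver X receptors (LXRs), measured 33.8 and 39.7 CPM in WT and 73.1, 77.5 and 87.8 for Xap5 KO. Abca1 in Nono KO was at 35.8, 34.4 and 45.7, and in Sox5 KO at 96.7, 118 and 106. Nono KO overlapped WT at 0.07 ± 0.13 (adjusted p = 0.688), while Xap5 KO rose by 1.11 ± 0.13 (adjusted p = 5.71e-06) and Sox5 KO by 1.53 ± 0.13 (adjusted p = 9.68e-08). The difference between Xap5 KO and Nono KO was itself called, at 1.04 (adjusted p = 1.99e-06). Abcg1, which exports cholesterol to high-density lipoprotein and is also an LXR target, was almost absent outside Sox5 KO: its counts were 0 and 4 in WT, 4, 8 and 0 for Xap5 KO, 0, 0 and 0 for Nono KO, and 337, 304 and 290 in Sox5 KO. The Sox5 KO level was 211 times the WT level, with a 95% interval of 82.0 to 775 from pooled counts, 4 of them in WT (counting error only). The interval takes these estimated counts as independent and leaves out the spread between libraries, so it may be too narrow. No test is given for this gene, which passed the filter only through that line. Against Nono KO it was at least 130-fold higher, with 3 counts per library taken as the floor.

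Npc1 and Npc2 hand cholesterol out of late endosomes and lysosomes. Npc1 measured 161 and 153 CPM in WT and 150.1, 145 and 141 for Xap5 KO. Npc1 in Nono KO was at 69.5, 69.0 and 71.2, and in Sox5 KO at 145, 167 and 156. The 3 Nono KO libraries were at less than the level of any other library, and the log2 fold change was -1.17 ± 0.063 (adjusted p = 2.19e-12), against -0.11 ± 0.063 for Xap5 KO (adjusted p = 0.159) and -0.01 ± 0.064 for Sox5 KO (adjusted p = 0.936). Npc1 had the largest called fall of any member in the 3 lines, and its differences between Nono KO and the other KO lines were 1.06 ± 0.058 (Xap5 KO minus Nono KO, adjusted p = 3.31e-12) and -1.16 ± 0.058 (Nono KO minus Sox5 KO, adjusted p = 3.32e-13). Npc2 fell in Xap5 KO, at a log2 change of -0.34 (adjusted p = 9.46e-05), and in Sox5 KO, with -0.21 (adjusted p = 0.00448), and was at 0.05 (adjusted p = 0.576) for Nono KO. Npc2 is on chromosome 12, whose median was -0.75 for Sox5 KO, and relative to that median it was at 0.53 and called higher. In Xap5 KO, with a chromosome 12 median of -0.16, it was at -0.19 and still called lower, and with library totals it was at -0.33 in Sox5 KO. With library totals Npc1 was called lower in Xap5 KO, at -0.17. Stard4, which carries cholesterol between membranes, rose in all 3 lines by 0.30 (adjusted p = 0.00673), 0.38 (adjusted p = 0.000816) and 0.63 (adjusted p = 1.86e-06), and the call in Xap5 KO was lost without WT replicate 1 (0.26), and its rise in Nono KO was 0.22 with library totals and still called.

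**Figure D4:**
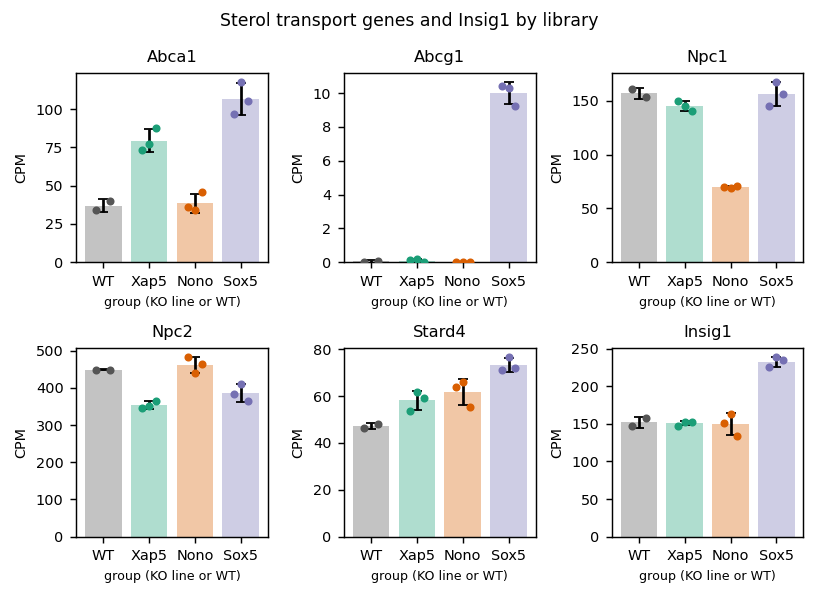
CPM (y axis) of the 5 sterol transport genes and Insig1 by group (x axis), with a point for each library, bars at the group mean and error bars of 1 SD (n = 2 for WT, 3 for each KO line). Abca1 is raised in Xap5 KO and Sox5 KO, Abcg1 and Insig1 are raised in Sox5 KO, and Npc1 is lowered in Nono KO.

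The 9 genes of fatty acid synthesis all rose in Nono KO and in Sox5 KO, but the order of the 2 lines differed from gene to gene. Acly, Acaca, Fasn and Elovl6, which form cytosolic acetyl-CoA, carboxylate it, build palmitate and lengthen it, were higher in Nono KO than in Sox5 KO. The log2 difference between these lines was 0.23 (adjusted p = 0.00201) for Acly, 0.27 (adjusted p = 0.000126) for Acaca, 0.18 (adjusted p = 0.00417) for Fasn and 0.36 (adjusted p = 7.55e-05) for Elovl6. Acss2, Scd1, Scd2, Fads1 and Fads2 were lower in Nono KO than in Sox5 KO. The difference was -0.50 (adjusted p = 0.000247) for Acss2, -0.55 (adjusted p = 1.78e-08) for Scd1, -0.79 (adjusted p = 1.32e-10) for Scd2, -0.70 (adjusted p = 6.7e-11) for Fads1 and -0.99 (adjusted p = 3.57e-12) for Fads2. Scd1, Scd2, Fads1 and Fads2 are on chromosome 19, whose median was 0.39 for Sox5 KO. Relative to the chromosome medians Scd1 at -0.06 and Elovl6 at 0.06 no longer differed by call, and the other 7 genes kept direction and call, with Scd2 at -0.29, Fads1 at -0.21 and Fads2 at -0.50. Acly and Fasn differed more on that scale, at 0.36 and 0.30.

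Fasn, the fatty acid synthase, measured 445 and 453 CPM in WT and 458, 448 and 439 for Xap5 KO. Fasn in Nono KO was at 574, 598 and 548, and in Sox5 KO at 485, 527 and 505. Xap5 KO overlapped WT, Sox5 KO lay just above, and Nono KO was the highest group. Against WT, Fasn rose in Nono KO by 0.35 (adjusted p = 3.16e-05) and in Sox5 KO by 0.17 (adjusted p = 0.0138), and was at -0.0023 (adjusted p = 0.982) for Xap5 KO. Acaca, the cytosolic acetyl-CoA carboxylase, rose in Nono KO by 0.44 (adjusted p = 2.7e-06) and in Sox5 KO by 0.17 (adjusted p = 0.0175), and fell in Xap5 KO, at a log2 change of -0.15 (adjusted p = 0.0452). Acly, the ATP citrate lyase, rose in Nono KO by 0.47 (adjusted p = 8.05e-06) and in Sox5 KO by 0.23 (adjusted p = 0.00551), with -0.15 (adjusted p = 0.0711) for Xap5 KO. Elovl6, an elongase of long-chain fatty acids, rose in Nono KO by 0.86 (adjusted p = 5.27e-09) and in Sox5 KO by 0.51 (adjusted p = 5.72e-06), with 0.03 (adjusted p = 0.797) for Xap5 KO. The small rises in Sox5 KO depended on the setting. With scaling by library totals they were 0.12 for Acly, 0.05 for Acaca and 0.06 for Fasn and none was called, nor were they called relative to the median of chromosome 11 (0.08, 0.02 and 0.02). In Nono KO library totals gave 0.30, 0.28 and 0.19 for these genes, all still called, and in Xap5 KO they gave Acly -0.21, called lower. Without WT replicate 1 they were 0.20, 0.17 and 0.15 and not called, without WT replicate 2 Acaca at 0.16 and Fasn at 0.18 were not called, and without Sox5 KO replicate 2 Acaca at 0.13 and Fasn at 0.14 were not called. The fall of Acaca in Xap5 KO was not called without WT replicate 1 (-0.15) or 2 (-0.17), Xap5 KO replicate 1 (-0.15) or 3 (-0.15), or Nono KO replicate 1 (-0.15), and Acly was called lower in Xap5 KO without Xap5 KO replicate 1 (-0.20).

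Acss2 makes acetyl-CoA from acetate, and the desaturases Scd1 and Scd2 put the first double bond into saturated fatty acids. Acss2 measured 13.6 and 15.5 CPM in WT and 21.8, 26.2 and 26.8 for Xap5 KO. Acss2 in Nono KO was at 20.7, 26.0 and 23.8, and in Sox5 KO at 34.7, 33.3 and 31.7. Its KO libraries all lay above WT, and the log2 fold change was 0.77 ± 0.12 for Xap5 KO (adjusted p = 1.89e-05), 0.69 ± 0.12 for Nono KO (adjusted p = 6.32e-05) and 1.19 ± 0.12 in Sox5 KO (adjusted p = 2.76e-08). Scd1 measured 217 and 231 CPM in WT and 217, 214 and 199.8 for Xap5 KO. Scd1 in Nono KO was at 316, 318 and 289.6, and in Sox5 KO at 435, 461 and 460.4. It rose in Nono KO by 0.46 ± 0.063 (adjusted p = 3.15e-06) and in Sox5 KO by 1.01 ± 0.064 (adjusted p = 1.44e-11), while Xap5 KO overlapped WT at -0.09 ± 0.062 (adjusted p = 0.246). Scd2 measured 1079 and 1088 CPM in WT and 1232, 1277 and 1416 for Xap5 KO. Scd2 in Nono KO was at 1739, 1701 and 1708, and in Sox5 KO at 2825, 3047 and 3002. Its 4 groups did not overlap, in the order WT, Xap5 KO, Nono KO, Sox5 KO, at a log2 change of 0.27 ± 0.064 for Xap5 KO (adjusted p = 0.00153), 0.66 ± 0.065 for Nono KO (adjusted p = 2.77e-08) and 1.45 ± 0.067 in Sox5 KO (adjusted p = 1.07e-13). With library totals Scd1 was at 0.29 for Nono KO and still called. A microRNA gene, Mir5114, lies within Scd2 exons on the same strand.

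Fads1 and Fads2 desaturate polyunsaturated fatty acids and are neighbours on chromosome 19. Fads1 measured 281 and 284 CPM in WT and 405, 399 and 388 for Xap5 KO. Fads1 in Nono KO was at 344, 358 and 343, and in Sox5 KO at 579, 579 and 546. Fads2 measured 152 and 151 CPM in WT and 324, 299.9 and 280.2 for Xap5 KO. Fads2 in Nono KO was at 222, 236 and 231, and in Sox5 KO at 455, 479.6 and 437. For both genes the order was WT, Nono KO, Xap5 KO, Sox5 KO without overlap, and Xap5 KO was called above Nono KO in only 7 of the 37 members. The log2 fold change of Fads1 was 0.49 ± 0.055 for Xap5 KO (adjusted p = 3.03e-07), 0.30 ± 0.055 for Nono KO (adjusted p = 0.000111) and 1.01 ± 0.056 in Sox5 KO (adjusted p = 2.27e-12), and that of Fads2 was 0.99 ± 0.066 for Xap5 KO (adjusted p = 9.2e-11), 0.60 ± 0.065 for Nono KO (adjusted p = 1.35e-07) and 1.59 ± 0.068 in Sox5 KO (adjusted p = 3.17e-14). Xap5 KO exceeded Nono KO by 0.19 (adjusted p = 0.00263) for Fads1 and by 0.39 (adjusted p = 6.99e-06) for Fads2. Relative to the chromosome 19 medians the difference for Fads1 was 0.02 and not called, and that for Fads2 was 0.22 and still called. With library totals Fads1 was at 0.14 for Nono KO and exceeded it in Xap5 KO by 0.30, both called. Relative to the median of 0.39 for Sox5 KO the rises in that line were 0.62 for Fads1, 1.21 for Fads2, 0.63 for Scd1 and 1.06 for Scd2.

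**Figure D5:**
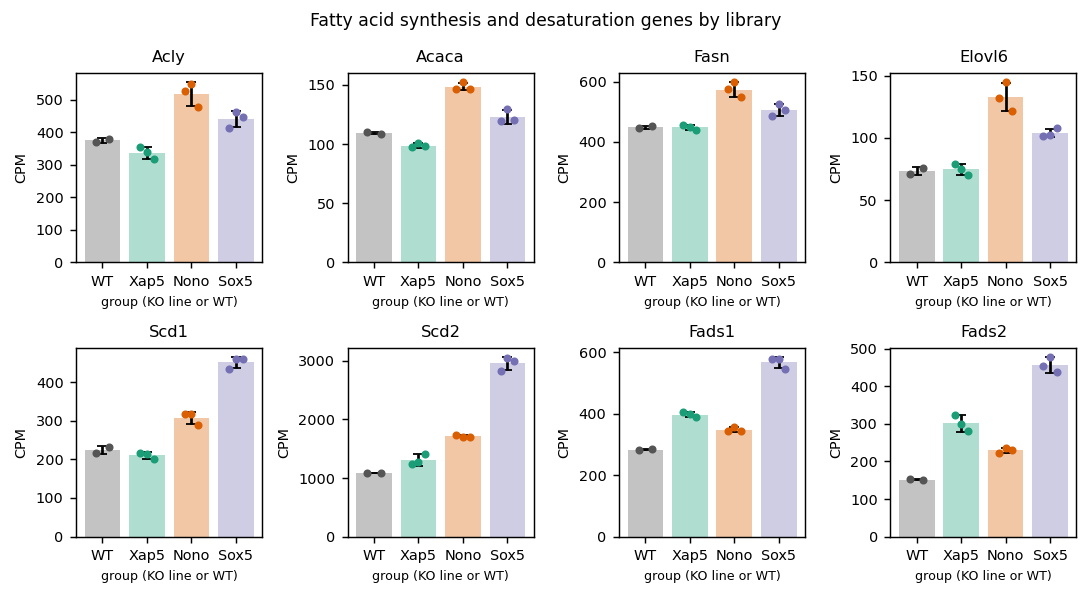
CPM (y axis, from 0) of 8 genes of fatty acid synthesis and desaturation by group (x axis), with a point for each library, bars at the group mean and error bars of 1 SD (n = 2 for WT, 3 for each KO line). The upper 4 genes are highest in Nono KO, and the lower 4 are highest in Sox5 KO.

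Compared directly with each other, the KO lines differed in most members. Sox5 KO was higher than Xap5 KO in 32 of 37 members (86.5%, against 30.4% of all tested genes) and lower in 1, Hmgcs1 (2.7%, against 31.1%). Nono KO was higher than Xap5 KO in 23 members (62.2%, against 25.9%) and lower in 7 (18.9%, against 27.1%), which were Nsdhl, Ebp, Npc1, Abca1, Abcg1, Fads1 and Fads2. Abcg1 is in that count on 4, 8 and 0 against 0, 0 and 0 counts, and its call was lost without Xap5 KO replicate 2. Sox5 KO was higher than Nono KO in 23 members (62.2%, against 32.6%) and lower in 8 (21.6%, against 30.9%), namely Hmgcs1, Hsd17b7, Sc5d, Npc2, Acly, Acaca, Fasn and Elovl6. Abcg1, which passed the filter only through Sox5 KO, is among the 32 and the 23 members higher in Sox5 KO. With a filter of at least 10 counts in every library, which leaves Abcg1 out, these counts were 31 and 22. Srebf2 was lower in Xap5 KO than in Nono KO, at a log2 difference of -0.19 (adjusted p = 0.00229), and than in Sox5 KO, at -0.14 (adjusted p = 0.014), and it was at 0.05 (adjusted p = 0.414) between Nono KO and Sox5 KO. The 2 differences of Srebf2 were -0.08 and -0.08 with scaling by library totals, and -0.06 and -0.01 relative to the chromosome 15 medians, and not called. Acat2 between Xap5 KO and Nono KO, at -0.16 (adjusted p = 0.044), was -0.05 and not called with library totals. It was not called without Xap5 KO replicate 1 or 3, Nono KO replicate 1 or 2, or Sox5 KO replicate 1 or 3, at -0.10 to -0.17, and was -0.25 without Nono KO replicate 3.

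Genes around the pathway gave more mixed counts. The counts below can be read against the same shares of all tested genes given above. At most 2 called genes are named per list and line, apart from Slc27a1. A gene not named for a line may also have changed there. Of 10 genes of SREBP processing and sterol sensing, 3 were higher and 3 lower in Xap5 KO, 2 and 4 for Nono KO, and 4 and 2 in Sox5 KO. Tmem97, an endoplasmic reticulum protein that binds sterols, rose by 0.94 (adjusted p = 6.84e-09), 0.91 (adjusted p = 8.95e-09) and 1.42 (adjusted p = 5.05e-12) in Xap5, Nono and Sox5 KO. Mbtps1, the site-1 protease that cleaves SREBPs, fell in Xap5 KO, at a log2 change of -0.78 (adjusted p = 2.16e-10), or -0.43 relative to the chromosome 8 median. Mbtps1 was also below WT (251 and 246 CPM) in Nono KO (208, 221 and 220) and Sox5 KO (178, 182 and 174). Spring1, which the site-1 protease needs, fell in Sox5 KO, at a log2 change of -1.01 (adjusted p = 4.66e-08), and Pgrmc1, a haem-binding protein that interacts with Cyp51, fell in Nono KO, at a log2 change of -0.997 (adjusted p = 1.84e-12). Spring1 was also below WT (72.8 and 68.4 CPM) in Nono KO, at 35.3, 38.8 and 41.5 CPM. Pgrmc1 was above WT (399 and 409 CPM) in Xap5 KO (456, 453 and 484) and Sox5 KO (486, 484 and 474). Of 7 genes of the LXRs, their partners and their targets, 1 was higher and 1 lower in Xap5 KO, 1 and 4 for Nono KO, and 3 and 1 in Sox5 KO. Mylip, a ubiquitin ligase and LXR target, fell in all 3 lines, with log2 fold changes of -0.26 (adjusted p = 0.00519), -0.77 (adjusted p = 1.09e-08) and -0.81 (adjusted p = 3.28e-09). In Xap5 KO Mylip was at -0.55 relative to the chromosome 13 median. Lpcat3, a phospholipid acyltransferase and LXR target, rose by 0.27 (adjusted p = 0.022) for Xap5 KO, a call lost without WT replicate 1 (0.14) or Xap5 KO replicate 3 (0.23) or with library totals (0.22), and by 0.97 (adjusted p = 1.67e-08) for Sox5 KO. Relative to the chromosome 6 median of -0.25 for Xap5 KO, Lpcat3 was at 0.52. Lpcat3 was also above WT (30.1 and 36.0 CPM) in Nono KO, at 44.8, 49.0 and 44.3 CPM. Apoe, the lipoprotein component, fell in Nono KO, at a log2 change of -1.16 (adjusted p = 0.00124). Of 11 genes of nonsterol isoprenoid synthesis, 2 were higher and 3 lower in Xap5 KO, 2 and 1 for Nono KO, and 3 and 3 in Sox5 KO. Pdss1, a subunit of the enzyme that makes the ubiquinone side chain, rose by 1.40 (adjusted p = 6e-05), 0.62 (adjusted p = 0.0352) and 1.55 (adjusted p = 9.94e-06), and its call in Nono KO was lost without WT replicate 2 (0.46) or Nono KO replicate 1 (0.62) or 2 (0.38), and with library totals (0.46). Its partner Pdss2 fell in Xap5 KO, at a log2 change of -0.49 (adjusted p = 0.0406), and that call was lost without either WT replicate, Xap5 KO replicate 1 or 2, or any Sox5 KO replicate, at -0.42 to -0.56. Relative to the chromosome 10 median of -0.46 Pdss2 was at -0.03. Nus1, of dolichol synthesis, rose in Nono KO by 0.28 (adjusted p = 0.00129), and was at 0.11 and not called with library totals. Fntb, a farnesyltransferase subunit, fell in Sox5 KO, at a log2 change of -0.66 (adjusted p = 1.81e-05) that was 0.09 relative to the median of its chromosome 12.

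Genes of fatty acid supply, elongation and activation were mostly higher in Xap5 KO and Sox5 KO. Of 14 tested genes of the 16 listed, 11 were higher and 0 lower in Xap5 KO, 7 and 2 for Nono KO, and 12 and 1 in Sox5 KO, with median log2 fold changes of 0.40, 0.28 and 0.81. Mid1ip1, which promotes polymerisation of acetyl-CoA carboxylase, rose by 1.41 (adjusted p = 6.52e-11), 1.31 (adjusted p = 1.39e-10) and 2.03 (adjusted p = 1.07e-13). Me1, the malic enzyme that supplies NADPH, rose in Nono KO by 0.99 (adjusted p = 2.8e-10), or 0.65 relative to the chromosome 9 median, and Acsl3, an acyl-CoA synthetase, rose in Sox5 KO by 1.70 (adjusted p = 6.73e-11). Me1 was also above WT (53.0 and 51.3 CPM) in Xap5 KO (77.4, 78.6 and 68.8) and Sox5 KO (91.2, 84.7 and 84.6). Acsl3 was also above WT (72.6 and 75.7 CPM) in Xap5 KO (88.7, 90.4 and 114) and Nono KO (114, 118 and 129). In Xap5 KO the mitochondrial acetyl-CoA carboxylase Acacb rose by 1.17 (adjusted p = 0.00014). Acacb was below WT (5.81 and 6.58 CPM) in Sox5 KO, at 2.78, 3.15 and 2.42 CPM. Of 11 tested genes of 12 listed for glycerolipids and lipid droplets, 4 were higher and 5 lower in Xap5 KO, 0 and 7 for Nono KO, and 3 and 6 in Sox5 KO, with medians of -0.23, -0.53 and -0.24. Soat1, which esterifies cholesterol for storage, fell in Xap5 KO, at -0.65 (adjusted p = 1.71e-07), and in Nono KO, at -0.96 (adjusted p = 3.36e-10). Soat1 was also below WT (177 and 181 CPM) in Sox5 KO, at 95.7, 107 and 102 CPM. Lpin1, a phosphatidate phosphatase, fell in Sox5 KO, at a log2 change of -1.28 (adjusted p = 9.59e-11), or -0.53 relative to the chromosome 12 median, and Pnpla2, the first lipase of stored triglyceride, rose there by 1.18 (adjusted p = 2.29e-08). Calls on genes of few counts were less firm: Agpat2 rose in Xap5 KO by 1.01 (adjusted p = 0.0176), but not without WT replicate 2 (0.76) or Xap5 KO replicate 1 (0.79). Dgat2 fell in Nono KO, at a log2 change of -1.44 (adjusted p = 0.0394), and was not called without WT replicate 1, Nono KO replicate 1 or 2, or Sox5 KO replicate 1 or 2, at -0.90 to -1.47, nor relative to the chromosome 7 median (-1.26). Of 12 genes of fatty acid oxidation, 2 were higher and 1 lower in Xap5 KO, 3 and 5 for Nono KO, and 2 and 7 in Sox5 KO. Cpt2 and Eci1 rose in Xap5 KO, by 0.40 (adjusted p = 0.000456) and 0.31 (adjusted p = 0.0065), the latter not without WT replicate 2 (0.29) or relative to the chromosome 17 median (0.13). In Nono KO the carnitine carrier Slc25a20 rose by 0.64 (adjusted p = 0.000608) and Acads fell, at -0.59 (adjusted p = 8.67e-06). Relative to the medians of chromosomes 9 and 5 Slc25a20 was at 0.29 and not called, and Acads at -0.39. In Sox5 KO Eci1 rose by 0.84 (adjusted p = 5.1e-08). Decr1, a reductase needed to oxidise unsaturated fatty acids, fell in Sox5 KO, at a log2 change of -0.98 (adjusted p = 3.27e-08).

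Of 6 tested genes of 7 listed for fatty acid uptake and binding, 3 were higher and 1 lower in Xap5 KO, 3 and 1 for Nono KO, and 4 and 0 in Sox5 KO. Lpl, the lipase that frees fatty acids from lipoprotein triglyceride, measured 10.2 and 12.2 CPM in WT and 192, 179 and 206 for Xap5 KO. Lpl in Nono KO was at 238, 234 and 267, and in Sox5 KO at 350.4, 408 and 386. All KO libraries stood far above WT, with log2 fold changes of 4.10 ± 0.10 for Xap5 KO (adjusted p = 6.45e-17), 4.45 ± 0.10 for Nono KO (adjusted p = 1.74e-17) and 5.08 ± 0.11 in Sox5 KO (adjusted p = 7.88e-18). Fabp5, a fatty acid-binding protein, rose in Xap5 KO by 1.16 (adjusted p = 8.5e-08) and in Sox5 KO by 1.34 (adjusted p = 4.8e-09). Fabp5 was also above WT (13.8 and 12.9 CPM) in Nono KO, at 27.9, 22.5 and 26.2 CPM. Slc27a1 of the same list measured 94.6 and 90.2 CPM in WT and 62.6, 61.2 and 72.7 for Xap5 KO. Slc27a1 in Nono KO was lower, at 27.8, 28.5 and 28.7, and in Sox5 KO higher, at 227, 222 and 211. Fabp4 was called higher in Nono KO (adjusted p = 0.0449) at levels of a few counts, 0 and 0.0908 CPM in WT and 0.666, 0.56 and 0.221 for Nono KO. That call was lost without WT replicate 1, Nono KO replicate 1 or 2, or Sox5 KO replicate 2 or 3.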

How the data were processed

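Total RNA of NIH/3T3 cells was sequenced as 11 libraries, and the authors deposited 1 table of gene counts. Its values are estimated counts per gene, whole numbers that the authors deposited without normalization. Per the submitters' processing notes, HISAT2 2.1.0, StringTie 1.3.3b and DESeq2 1.12.4 were used with builds GRCm39 and mm39. Their order, the annotation, the counting step and the handling of strand are not given in the sources used here, so reads of overlapping genes, on either strand, may be shared: exons of 13 members overlap another gene. Every per-sample column was matched to a library (0 left out).

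The counts were analysed with edgeR 4.0.16 in R 4.3.3. Genes passed filterByExpr (minimum count 10, minimum total 15). Scaling was by TMM, and 1 quasi-likelihood fit over the 4 groups gave all 6 contrasts, with Benjamini-Hochberg adjustment over 13332 genes and calls at an adjusted p under 0.05. CPM values use TMM library sizes, SD is between libraries and SE is from the fit. The procedure was tested on simulated data. The members had mean counts of at least 86.1, and 36 had at least 100. The labels do not say that replicates came from separate cultures, so p-values measure the spread between these libraries, which may be technical. The labels give no batch.

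Members and gene lists were chosen with earlier results of these data known. Values by library are given for members called in at least 1 KO line with a log2 fold change of 1 or more in size, and for 5 regulators. Of each related list at most 2 genes per line are named, the called genes with the largest change. Fasn, Fabp4 and Lpl were given by library for their role, and Slc27a1 was added outside that rule because Fabp4 had few counts. Thrsp, Elovl7, Mgll and Cd36 did not pass the filter. Chromosome and transcript length came from GENCODE M21 (GRCm38), by gene ID, and promoters from RefSeq (GRCm38.p6). No coordinates of the files' build are given. Alternatives were scaling by library totals or relative log expression, DESeq2 1.42.0, other filters, only the 2 groups compared, a replicate block, each library left out, and the chromosome offset, in which the median log2 fold change of a gene's chromosome was subtracted.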

Additional observations from a re-analysis of the deposited data

How the results depend on the processing

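Of 111 member values against WT, 90 kept their side of the threshold under all alternatives that gave a value (19, or fewer for Abcg1), and 84 of these also kept their sign. The other 6 were not called and changed sign. Between KO lines 84 of 111 member values kept their side of the threshold, 78 of them also their sign, and 32 of 42 values of other named genes kept both. Counts of members called higher against WT stayed within 1.5 times those reported in each of these fits. Members lower in Xap5 KO, 4 as reported, numbered 8 with library totals, 2 with the replicate block and 2 to 5 with 1 library left out. With the chromosome offset, 1 member was lower in Sox5 KO, 4 were higher in Xap5 KO than in Nono KO and 0 were higher in Xap5 KO than in Sox5 KO. A log2 fold change of at least 1 in size as well left 2 members higher (5.67% of all tested genes) and 0 lower (4.61%) for Xap5 KO, 8 (6.5%) and 1 (4.68%) for Nono KO, and 19 (8.3%) and 0 (8.87%) in Sox5 KO. Between lines it left 3 higher (5.24%) and 1 lower (5.81%) for Xap5 KO against Nono KO, 0 (7.91%) and 10 (7.06%) for Xap5 KO against Sox5 KO, 0 (9.62%) and 5 (7.4%) for Nono KO against Sox5 KO, and 0 members higher (1.91%) and 0 lower (0.975%) in all 3 lines. Abcg1 is in these counts of 3, 10 and 5 and in the 19 for Sox5 KO.

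Values called as reported, or called under the alternative, turned direction only with the chromosome offset, among the alternatives fitted. The log2 fold change against WT became 0.23 for Msmo1 in Xap5 KO, 0.17 for Insig1 in Nono KO, and 0.53 for Npc2 and 0.088 for Fntb in Sox5 KO. Between lines it became 0.025 for Lss, 0.072 for Scap and -0.23 for Insig1 (Xap5 KO against Nono KO), -0.069 for Hmgcs1 (Xap5 KO against Sox5 KO), and 0.14 for Mvd and -0.49 for Npc2 (Nono KO against Sox5 KO). With library totals the median of all genes was -0.05 for Xap5 KO, -0.18 for Nono KO and -0.12 in Sox5 KO. As reported, these medians were 0.0026, -0.0196 and -0.0058. The cause of these shifts was not tested.

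Replicate numbers did not pair the libraries: same-numbered libraries of different groups correlated at -0.033 to 0.062 in their deviations from the group means, 0 of 15 pairs above 0.1, and 4 of 11 libraries matched best with their own number. With the replicate block, 21, 30 and 34 members were higher in Xap5, Nono and Sox5 KO. WT had 2 libraries, and 1 remained when either was left out, which was then assumed to vary like the other groups. Depth limited Abcg1 alone among the members.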
